A study of Mus musculus with 12 samples.

Results

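Ribosome footprints of KPC cells treated with cisplatin (Cis) for 6 h were compared with those of PBS-treated cells across all mRNAs. The comparison used the 4 footprint libraries that the labels assign to these groups, 2 with Cis at 6 h and 2 with PBS, of the 12 libraries in the series. KPC is a mouse pancreatic ductal adenocarcinoma line from animals in which a Cre driven by the pancreatic Pdx1 promoter switches on lox-stop-lox alleles, mutant Trp53 among them, so every group carried the same engineered alleles. Cells received 20 μM Cis or PBS as the vehicle, which the labels call no treatment, and were lysed in buffer with cycloheximide (CHX). It is a single cell line, the labels give no time for PBS, and nothing says whether the 2 libraries of a group came from separate cultures. The p-values thus measure only the spread between libraries. The fit took that spread from all 6 footprint libraries, the 21 h pair included, and in part from other mRNAs. The other libraries are the RNA-seq of the same groups (4) and the 21 h time point.

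Footprints are the mRNA fragments that ribosomes shield from RNase, and their number on a coding sequence follows both the amount of the mRNA and how many ribosomes it carries. Cis forms platinum crosslinks on DNA, which block DNA replication and transcription and switch on stress and cell cycle checkpoint genes. Replication histones, made in S phase to package new DNA, are read from short intronless genes whose mRNAs end in a stem-loop and are degraded when DNA synthesis stops. Immediate early genes, such as Fos and Jun, are short genes that respond to stress kinases and growth factors without new protein synthesis.

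The PBS libraries held 5204127 and 4661014 footprint reads over coding sequences, and the 6 h libraries 4691825 and 3375480. Levels are RPKM, the reads per kilobase of coding sequence, scaled to the total reads of the library. The log2 levels of the PBS libraries correlated with each other across mRNAs at 0.989 and those of the 6 h libraries at 0.988, and across the groups at 0.980 to 0.983, where mRNAs are not independent replicates. Of the 10 epithelial markers, Krt8 lay at 4819 and 4679 RPKM with PBS and at 4949 and 4876 RPKM at 6 h, and Krt18, Krt19 and Cdh1 were above 100 RPKM in every library. Epcam stayed under 2 RPKM, and 3 of the 10 stayed under 1 RPKM in all 4 libraries, namely Cldn4 (0 to 0.94 RPKM), Muc1 (0.31 to 0.71 RPKM) and Cldn7, which was not listed. Markers of other cell types were at or near 0: 5 of 6 macrophage, 5 of 7 fibroblast, 4 of 4 endothelial, 4 of 5 acinar and 4 of 4 T cell genes stayed under 1 RPKM in all 4 libraries, with summed levels of at most 9.72 RPKM for any of these lists in any library, most of it Col3a1 (5.29 to 8.09 RPKM).

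After 6 h of Cis, the relative footprint levels of most mRNAs stayed close to those with PBS, and a small group changed in each direction. The scaling of the libraries holds the median change near 0, so a change shared by all mRNAs would not be seen here. Among 10390 mRNAs tested, 109 had more footprints at 6 h (1.05%) and 103 had fewer (0.991%) at an adjusted p under 0.05 with limma. The median log2 change of all mRNAs tested was -0.01, and 80% of them lay between the 10th percentile of -0.45 and the 90th of 0.40. Rises were smaller than falls: the called rises ran from 0.39 to 1.81 on the log2 scale with a median of 0.63 and 12 of them above 1, and the called falls had a median of -0.84, with 36 of them below -1. The lowest fitted value, that of Pf4, which was named after its value was seen, is no measured fold, since it rests on 2 and 5 reads with PBS and 0 and 0 at 6 h and is set by the pseudocount. The 6 h and PBS libraries did not overlap in any of the 212 called mRNAs. Among all mRNAs tested, both 6 h libraries lay above both PBS libraries for 25.7% and below for 28.6%, and at an unadjusted p under 0.05, 10.3% were higher and 11% lower.

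**Figure D1:**
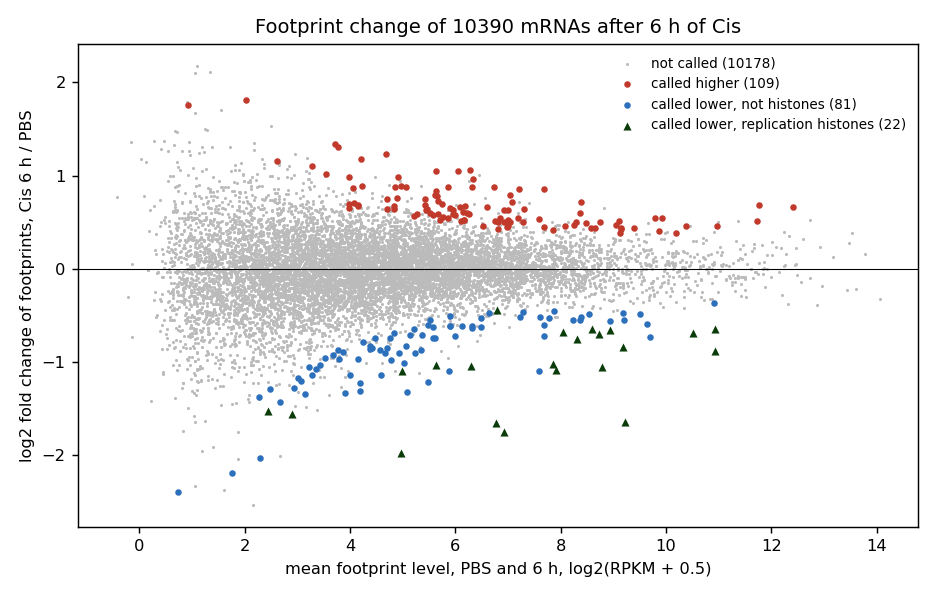
Log2 fold change of footprints (Cis 6 h over PBS) against the mean level on a log2(RPKM + 0.5) axis, 1 point for each of the 10390 mRNAs tested. The 109 called rises (red) reach 1.81, the 22 called histones (green triangles) reach -1.97 among the 81 other called falls (blue), of which the lowest point, Pf4, is set by the pseudocount, and the other mRNAs (grey) surround 0 more widely at low levels.

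The calls depended on having all 4 libraries. Leaving out a library left 8 higher and 9 lower mRNAs without PBS replicate 1, 12 and 18 without PBS replicate 2, 1 and 5 without 6 h replicate 1, and 0 and 0 without 6 h replicate 2, the shallowest of the 4. In this last fit the lowest adjusted p was 0.053, and 695 mRNAs were higher and 710 lower at an unadjusted p under 0.05. These fits leave 1 library in a group, which is assumed to vary like the other groups. The direction of the 212 called mRNAs could not change in these fits, since their 6 h and PBS libraries do not overlap. The fits also reuse libraries from which the calls were picked, so they are no separate test of the calls.

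Replication histone mRNAs were the clearest family among the falls. Of 56 members tested, 22 had fewer footprints at 6 h and 0 had more, against 0.991% of all mRNAs called lower, and they made up 21.4% of all called falls. In these bulk samples, fewer cells in S phase and less histone mRNA or fewer ribosomes on it per cell cannot be told apart. The median log2 change over the 56 was -0.61, against -0.01 over all mRNAs, and 5 of them lay above 0. Both 6 h libraries lay below both PBS libraries in 44 of the 56, against 28.6% of all mRNAs. Copies of a histone type are nearly identical in sequence, so that reads may be split between copies, and the values of single genes are less certain than that of the family.

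Each histone type held called falls, and the 4 largest were in the core histone H2A. Of 14 H2A genes 8 were called lower (median log2 change -0.60), as were 3 of 14 H2B genes (-0.62), 4 of 10 H3 genes (-0.78), 5 of 13 H4 genes (-0.39) and 2 of 5 genes of the linker histone H1 (-0.36). H2ac7 fell most, from 58.1 and 40.2 RPKM with PBS to 13.7 and 10.6 RPKM at 6 h (log2 change -1.97 ± 0.19 SE, adjusted p = 0.0047). H2ac6, at 229 and 147 RPKM with PBS and 48.6 and 61.5 RPKM at 6 h, fell by 1.75 ± 0.19 (adjusted p = 0.0073). In both genes the PBS libraries were uneven, and the lower of them was still more than 2 times the higher 6 h library.

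The most abundant H2A gene called, H2ac4, went from 1004 and 809 RPKM with PBS to 312 and 272 RPKM at 6 h, which left 31.9% of its PBS level (log2 change -1.64 ± 0.11, adjusted p = 0.0025). H2ac8 stood at 199.5 and 129.8 RPKM with PBS and at 60.7 and 43.3 RPKM at 6 h (log2 change -1.66 ± 0.20, adjusted p = 0.014). These 4 H2A genes were the only histones among the 12 largest falls that met the read minimum. H2ac1 and H3c11, with changes of -1.52 and -1.56, rested on a mean of 9 and 13.5 reads per library.

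In the other core histones, H2bc3 lay at 2670.3 and 2405 RPKM with PBS and at 1419.8 and 1361 RPKM at 6 h (log2 change -0.88 ± 0.07, adjusted p = 0.0042). H4c2 went from 335 and 312 RPKM to 168 and 141 RPKM (-1.08 ± 0.10, adjusted p = 0.0042), and H3c4 from 613 and 568 RPKM to 279 and 298 RPKM (-1.05 ± 0.09, adjusted p = 0.0042). The 6 h libraries thus held 48.3% of the PBS level for H3c4 and 47.3% for H4c2. The linker histone H1f5, at 454 and 343 RPKM with PBS and at 249 and 224 RPKM at 6 h, fell by 0.75 ± 0.12 (adjusted p = 0.029). The remaining called members, H1f3, H2ac11, H2ac15, H2ac20, H2bc11, H2bc12, H3c1, H3c2, H4c6, H4c8, H4c11 and H4c14, changed by -0.44 to -1.10.

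The 5 members above 0 were 2 H2A and 3 H4 genes, none of them called. In H2ac10 alone, both 6 h libraries lay above both PBS libraries. H2ac10 was named after its values were seen and lay at 41.9 and 58.9 RPKM with PBS and at 72.7 and 129.9 RPKM at 6 h, a log2 change of 0.95 ± 0.26 that did not pass (adjusted p = 0.095). Histone mRNAs that are not tied to DNA replication were looked up after their values were seen: H3f3a at 552 and 439.6 RPKM with PBS and 544 and 553 RPKM at 6 h overlapped between the groups, and H3f3b (log2 change 0.11 ± 0.08, adjusted p = 0.45) and H2az1 (0.22 ± 0.08, adjusted p = 0.18) did not pass. Slbp, chosen in the same way, encodes the protein that binds the stem-loop of histone mRNAs. It rose from 194 and 198 RPKM with PBS to 267 and 261 RPKM at 6 h (log2 change 0.41 ± 0.08, adjusted p = 0.038).

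The promoters of 3 histone genes called lower are shown because the family moved together. RefSeq windows on GRCm38.p6, from 250 bases before to 50 bases after the start of the gene, matched 51 of the 56 histone genes by symbol. Capitals mark the letters of the TATA box, TATAAA, and those of the CCAAT box on either strand. The windows of H2ac4 (chr13:23750838-23751137, plus strand), H2bc3 (chr13:23746484-23746783, plus strand) and H4c2 (chr13:23756687-23756986, plus strand) read 5′ to 3′ as follows.
H2ac4: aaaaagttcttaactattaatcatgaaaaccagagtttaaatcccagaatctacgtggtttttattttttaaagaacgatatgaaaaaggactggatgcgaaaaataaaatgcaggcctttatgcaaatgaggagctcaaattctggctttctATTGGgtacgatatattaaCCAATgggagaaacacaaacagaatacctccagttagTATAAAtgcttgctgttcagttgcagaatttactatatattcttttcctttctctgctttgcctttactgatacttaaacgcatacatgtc
H2bc3: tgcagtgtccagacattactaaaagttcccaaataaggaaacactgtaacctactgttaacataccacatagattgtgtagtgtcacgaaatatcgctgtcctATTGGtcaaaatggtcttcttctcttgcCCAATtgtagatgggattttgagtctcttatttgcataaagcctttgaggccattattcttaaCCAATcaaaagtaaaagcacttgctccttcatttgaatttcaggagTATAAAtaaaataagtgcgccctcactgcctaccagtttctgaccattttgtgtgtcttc
H4c2: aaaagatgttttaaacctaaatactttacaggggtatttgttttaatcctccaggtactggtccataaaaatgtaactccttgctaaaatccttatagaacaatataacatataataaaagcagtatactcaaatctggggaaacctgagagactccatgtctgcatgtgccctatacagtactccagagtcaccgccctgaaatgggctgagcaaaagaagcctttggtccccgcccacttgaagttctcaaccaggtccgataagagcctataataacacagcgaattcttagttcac
H2ac4 and H2bc3 held both sets of letters and H4c2 neither. TATAAA was found in 32 of the 51 histone windows (62.7%) and in 16 of the 20 windows of called histones, against 13.6% of all 32851 RefSeq windows and 7.15% of the 8395 windows matched to tested mRNAs. The letters CCAAT were found in 42 of the 51 (82.4%), against 37.4% of all windows. A match is a description of the letters, not of a bound site.

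In the 21 h libraries, which share the PBS controls, the called histones lay nearer to PBS. As a share of the mean PBS level, the median over the 22 called histones was 52.3% and 51.5% in the 6 h libraries, 99.9% and 93.9% in the 21 h libraries, and 105% and 94.7% in the PBS libraries themselves. These 22 were picked by low 6 h values against the same PBS libraries, which favours a nearer value at 21 h. Over all 56 members tested the medians were 66.5% and 60.7% at 6 h and 104% and 97.5% at 21 h. H2ac4 stood at 1015 and 915 RPKM at 21 h, within the PBS range, and H3c4 at 305 and 343 RPKM, below it. Of the 22, the 21 h libraries both lay below both PBS libraries for 9, both above for 4 and neither for 9. At the RNA level the 56 histones had a median log2 change of -0.43 at 6 h, and 22 of them were lower at an unadjusted p under 0.05, against 5.81% of all genes tested for RNA. These RNA values rest on few reads. No called histone had more than 295 in a PBS or 6 h RNA-seq library, and H2ac6 had 7 to 14. How well the RNA-seq captured mRNAs that end in a stem-loop was not tested.

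Leaving out a library moved the number of called histones from 22 to 8 without PBS replicate 1, 17 without PBS replicate 2, 5 without 6 h replicate 1 and 0 without 6 h replicate 2. The median change of the family stayed between -0.51 and -0.75 in these fits. PBS replicate 1 read higher than PBS replicate 2 over the family (medians of 109% and 90.9% of the PBS mean over the 56 members), and both 6 h libraries read lower (66.5% and 60.7%).

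**Figure D2:**
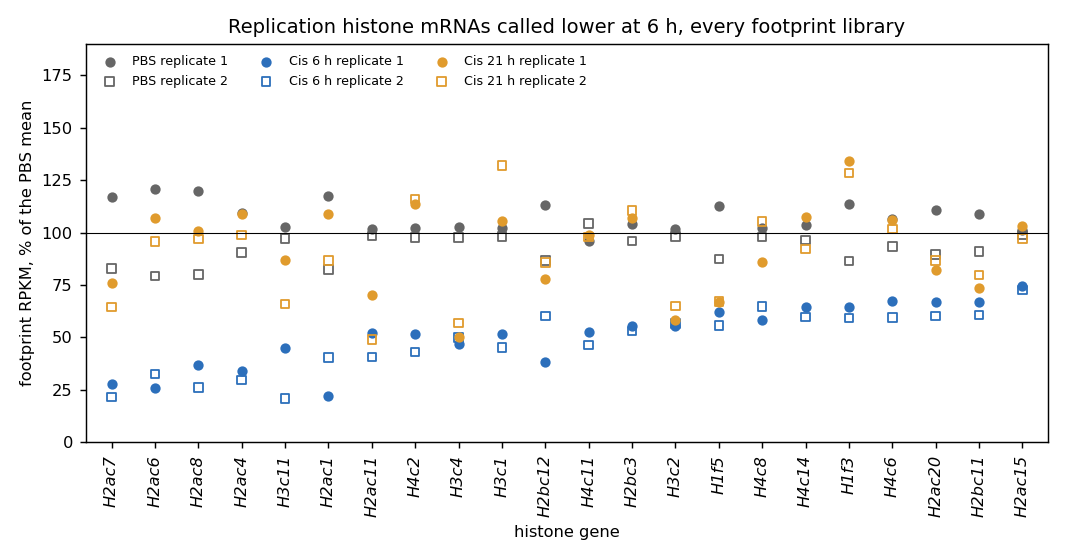
Footprint RPKM of the 22 replication histone mRNAs called lower at 6 h, as % of the mean of the 2 PBS libraries, with 1 point per library (filled circle, replicate 1; open square, replicate 2). The 6 h libraries (blue) lie below both PBS libraries (grey) for each gene, and the 21 h libraries (orange) lie at, above or below the PBS level depending on the gene.

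The other falls came mostly from genes that span a long stretch of the genome. Genomic span, the distance from start to end of a gene with introns, was taken as a length from RefSeq on GRCm38.p6 by symbol, for 10343 of the 10390 mRNAs. Of the 81 called falls outside the histones, 80 had a span, and 53 of these (66.2%) spanned over 100 kb, against 10.9% of all mRNAs tested and 0 of the 109 called rises. The median span was 139 kb for these falls, 8.79 kb for the rises and 22.5 kb for all mRNAs tested.

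Across all mRNAs tested, the change differed by span. The median log2 change was 0.10 for genes up to 5 kb, 0.12 from 5 to 10 kb, 0.09 from 10 to 20 kb and 0.01 from 20 to 50 kb. It was -0.15 from 50 to 100 kb, -0.39 from 100 to 200 kb and -0.67 over 200 kb. Of the 342 mRNAs from genes over 200 kb, 94.4% lay below 0, 26 were called lower (7.6%) and 0 were called higher.

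Both 6 h libraries showed the lower level of the longest genes when each was set against the PBS mean, where the median over 200 kb was -0.68 in 6 h replicate 1 and -0.66 in 6 h replicate 2, with -0.01 and 0.01 in the PBS libraries. Long genes also had lower levels, with a median PBS level of 8.29 RPKM over 200 kb and 28.3 RPKM up to 5 kb, and the part of level in these medians was not tested. RNA-seq medians ran from 0.06 up to 5 kb to -0.52 over 200 kb. Transcript length, taken from the deposited files, gave smaller steps, from 0.04 for mRNAs up to 1000 nt to -0.28 for those over 8000 nt.

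**Figure D3:**
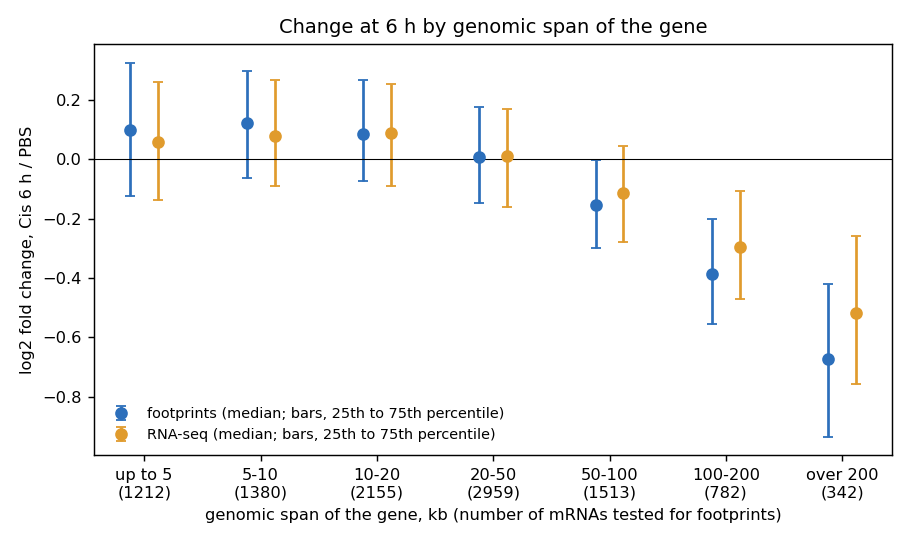
Median log2 fold change at 6 h of footprints (blue) and RNA-seq (orange) by genomic span of the gene in kb, with bars from the 25th to the 75th percentile over genes and the number of mRNAs tested under each bin. Footprint medians go from 0.10 up to 5 kb to -0.67 over 200 kb, and RNA-seq medians from 0.06 to -0.52.

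Among the 12 largest falls, 7 of the 8 that were not histones came from genes over 200 kb. Prkca, which encodes protein kinase C alpha (411 kb), went from 50.3 and 44.8 RPKM with PBS to 17.4 and 20.4 RPKM at 6 h (log2 change -1.32 ± 0.21, adjusted p = 0.029), with an RNA change of -1.19 ± 0.29. Pard3, a scaffold of cell polarity (549 kb), went from 12.0 and 12.1 RPKM to 5.01 and 4.07 RPKM (-1.34 ± 0.25, adjusted p = 0.038). Ext1, a subunit of the heparan sulfate polymerase (278 kb), went from 25.8 and 23.9 RPKM to 9.62 and 11.4 RPKM (-1.22 ± 0.19, adjusted p = 0.029). None of the 6 h values of these genes reached 50% of the PBS mean.

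Apbb2, which encodes a protein that binds the amyloid precursor protein, read 22.3 and 19.0 RPKM with PBS and 10.1 and 6.24 RPKM at 6 h (-1.34 ± 0.25, adjusted p = 0.038), the least even pair of 6 h libraries in this group. The zinc finger homeobox gene Tshz2 read 9.33 and 8.12 RPKM with PBS and 3.24 and 2.68 RPKM at 6 h (-1.43 ± 0.27, adjusted p = 0.038). Mgat5, which branches N-glycans, changed by -1.37 ± 0.28 and the centrosomal gene Sdccag8 by -1.29 ± 0.24. Synj2bp, a mitochondrial outer membrane protein, was the exception in span at 40.7 kb, with 28.3 and 22.7 RPKM under PBS and 9.80 and 10.2 RPKM at 6 h (-1.31 ± 0.22, adjusted p = 0.031).

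A list of 49 long signalling and cytoskeletal genes, written with their falls in these data already known, had 9 of 40 tested members called lower (median log2 change -0.88), and supports nothing by itself. Beyond Prkca, Pard3 and Ext1 these were Fndc3b (-0.98 ± 0.16), Fto, an RNA demethylase (-0.90 ± 0.15), Gphn, the gephyrin scaffold (-1.14 ± 0.22), Magi3 (-0.89 ± 0.17), Ptprk, a receptor phosphatase (-0.97 ± 0.19), and Arl15 (-2.03 ± 0.37, with a mean of 12.8 reads per library). At 21 h, set against the same PBS libraries, Prkca read 1.75 and 2.84 RPKM and Fto 3.06 and 3.61 RPKM. The lists of transcription and chromatin regulators and of ubiquitin ligases hold many long genes, with median spans of 94.9 and 123 kb. Of 43 transcription and chromatin regulators tested 5 lay above 0 (median -0.31), and Tcf4, a basic helix-loop-helix factor, was called, at 11.9 and 12.0 RPKM with PBS and 6.16 and 4.99 RPKM at 6 h (-1.06 ± 0.20, adjusted p = 0.039). Of 29 ubiquitin ligases and regulators tested 3 lay above 0 (median -0.40) and none passed with limma. In this list 11 were lower and 0 higher at an unadjusted p under 0.05 (all mRNAs, 11% and 10.3%), and voom, a limma fit on the recovered reads, called 15 lower (all mRNAs, 7.97% lower and 4.31% higher). The most abundant members of that list, Nedd4 at 242 and 253 RPKM with PBS and 237 and 235 RPKM at 6 h, and Cul1 at 67.6 and 67.6 RPKM and 65.5 and 70.0 RPKM, differed by -0.09 and -0.01 on the log2 scale.

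Stress genes were among the largest rises. Of 23 immediate early genes tested 5 were called higher (Fos, Atf3, Ier5, Jun and Ier3) and 0 lower, with a median log2 change of 0.27 and 16 above 0. For this and each list that follows, the share over all mRNAs was 1.05% called higher, 0.991% called lower and 48.4% above 0, so that 1 call in a list of 10 to 79 genes is not a result about the list. These shares differed by span. From genes of 5 to 10 kb, 33.3% of mRNAs lay below 0 and 1.81% were called higher, and from 10 to 20 kb 36.9% and 1.72%. Median spans were 5.30 kb for immediate early genes, 15.3 kb for p53 targets and 15.9 kb for DNA replication and G1/S genes. The part of span in the list values was not tested. Fos, a subunit of the AP-1 transcription factor, went from 5.39 and 9.60 RPKM with PBS to 20.4 and 17.4 RPKM at 6 h (log2 change 1.31 ± 0.24, adjusted p = 0.038). Its RNA changed by 1.17 ± 0.25 (adjusted p = 0.21 with limma), on 7 to 18 reads per library. Its partner Jun went from 11.3 and 12.2 RPKM to 18.3 and 19.5 RPKM (0.65 ± 0.13, adjusted p = 0.043). Atf3, a stress-induced transcription factor, rose with little spread between libraries, from 19.5 and 19.4 RPKM to 41.6 and 37.1 RPKM (0.98 ± 0.11, adjusted p = 0.008). Ier5 rose by 0.76 ± 0.12 and Ier3 by 0.64 ± 0.08. Egr1, of the same list and named after its value was seen, read 8.89 and 15.0 RPKM with PBS and 10.4 and 11.1 RPKM at 6 h, so the groups overlapped.

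Dusp1, a phosphatase that switches off stress-activated MAP kinases, was the called member of 13 feedback genes tested (median log2 change 0.30), at 38.9 and 45.6 RPKM with PBS and 92.9 and 85.0 RPKM at 6 h (1.05 ± 0.11, adjusted p = 0.0063). Gadd45b, a growth arrest and DNA damage gene, went from 49.6 and 48.7 RPKM to 110.1 and 98.8 RPKM (1.06 ± 0.09, adjusted p = 0.0042). Both genes were above 2 times their PBS mean, at 2.08 and 2.10 times. Their RNA changed by 1.12 ± 0.23 (adjusted p = 0.21) and 1.22 ± 0.30 (adjusted p = 0.25) with limma. The RNA value of Gadd45b rests on 8 to 21 reads per library. The Dusp1 window (chr17:26508423-26508722, minus strand, GRCm38.p6) is shown with the letters of the cAMP response element, TGACGTCA, in capitals, which read the same on both strands.
Dusp1: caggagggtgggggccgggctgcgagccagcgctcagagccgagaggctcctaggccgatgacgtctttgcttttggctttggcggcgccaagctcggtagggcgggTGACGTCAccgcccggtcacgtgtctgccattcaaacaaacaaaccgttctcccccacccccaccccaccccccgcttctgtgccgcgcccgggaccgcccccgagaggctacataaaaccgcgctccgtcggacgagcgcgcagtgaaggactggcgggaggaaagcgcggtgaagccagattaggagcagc
These letters were found in 3 of the 93 windows of called rises (3.23%) and in 3.36% of the windows of tested mRNAs, and the AP-1 letters TGACTCA, searched on both strands, in 4 of 93 (4.3%) and 3.63%.

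Chaperone genes were called in both directions. Of 23 heat shock genes tested 3 were called higher and 1 lower, with a median log2 change of 0.13. Zfand2a, a proteasome-associated protein induced by arsenite and heat, had the largest rise of the mRNAs that met the read minimum, from 7.87 and 5.86 RPKM with PBS to 15.0 and 21.9 RPKM at 6 h (1.34 ± 0.20, adjusted p = 0.029). The Hsp40 co-chaperones Dnajb1 (135 and 122 RPKM, then 196 and 173 RPKM) and Dnajb4 (246 and 267 RPKM, then 369.6 and 363 RPKM) each rose by 0.50. Hspe1, the mitochondrial co-chaperonin, fell from 926 and 975 RPKM to 669 and 611 RPKM (-0.59 ± 0.09, adjusted p = 0.029). Of 25 targets of the integrated stress response (ISR), Ddit3, which encodes CHOP, was the called one, from 11.8 and 11.1 RPKM to 18.2 and 20.0 RPKM (0.70 ± 0.12, adjusted p = 0.034), and the median of the list was 0.09. Srxn1, which repairs oxidized peroxiredoxins, was the called one of 23 NRF2 and metal response genes (median 0.17, 18 above 0), with 20.2 and 21.7 RPKM under PBS and 32.5 and 48.4 RPKM at 6 h (0.89 ± 0.18, adjusted p = 0.043).

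Rises were also called among cell cycle genes of the G1/S transition and p53 targets. Of 40 DNA replication and G1/S genes tested 4 were called higher and 0 lower, with a median log2 change of 0.15 and 29 above 0. Ccne1, cyclin E1, went from 59.2 and 49.3 RPKM with PBS to 113 and 101 RPKM at 6 h (0.97 ± 0.14, adjusted p = 0.025), and Ccne2 from 60.4 and 60.4 RPKM to 96.4 and 87.8 RPKM (0.59 ± 0.09, adjusted p = 0.029). The origin licensing genes Cdt1 (50.8 and 60.0 RPKM, then 85.1 and 86.2 RPKM) and Orc1 (12.4 and 12.1 RPKM, then 20.2 and 20.8 RPKM) rose by 0.61 ± 0.11 and 0.71 ± 0.13. Cyclin E, Cdt1 and Orc1 act before or at the start of S phase. Whether these rises and the histone falls are linked was not tested.

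Among 27 p53 targets tested 2 were called higher and 0 lower, with a median log2 change of 0.24 and 19 above 0. Cdkn1a, the cyclin-dependent kinase inhibitor p21, went from 56.0 and 54.9 RPKM with PBS to 108 and 98.8 RPKM at 6 h (0.87 ± 0.11, adjusted p = 0.015), while its RNA changed by 0.09 ± 0.24. Tigar, which lowers glycolytic flux, went from 20.5 and 17.0 RPKM to 35.4 and 29.0 RPKM (0.75 ± 0.14, adjusted p = 0.041). Neither gene overlapped between the groups. The KPC line carries mutant Trp53, and whether p53 took part in these rises was not tested.

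The rest of the 12 largest rises fell into none of these lists. Alkbh4, a dioxygenase, went from 11.5 and 10.01 RPKM to 27.2 and 23.4 RPKM (1.18 ± 0.16, adjusted p = 0.021). The RNA of Alkbh4 changed by 1.02 ± 0.25 (adjusted p = 0.25 with limma), on 8 to 21 reads per library. Rasl11a, a small GTPase, went from 32.0 and 31.6 RPKM to 66.6 and 67.3 RPKM (1.05 ± 0.10, adjusted p = 0.0047). Fst, which encodes follistatin, an antagonist of activin, rose from 2.98 and 3.53 RPKM to 8.05 and 7.75 RPKM (1.15 ± 0.20, adjusted p = 0.034). Its RNA changed by -0.78 ± 0.30 (adjusted p = 0.38 with limma), on 3 to 13 reads per library. 2410002F23Rik (1.23 ± 0.14), Klhl21, an adaptor of a ubiquitin ligase in cell division (1.10 ± 0.22), the homeobox gene Hhex (1.02 ± 0.16) and Dph2, needed for the diphthamide residue of elongation factor 2 (0.99 ± 0.17), made up the rest.

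**Figure D4:**
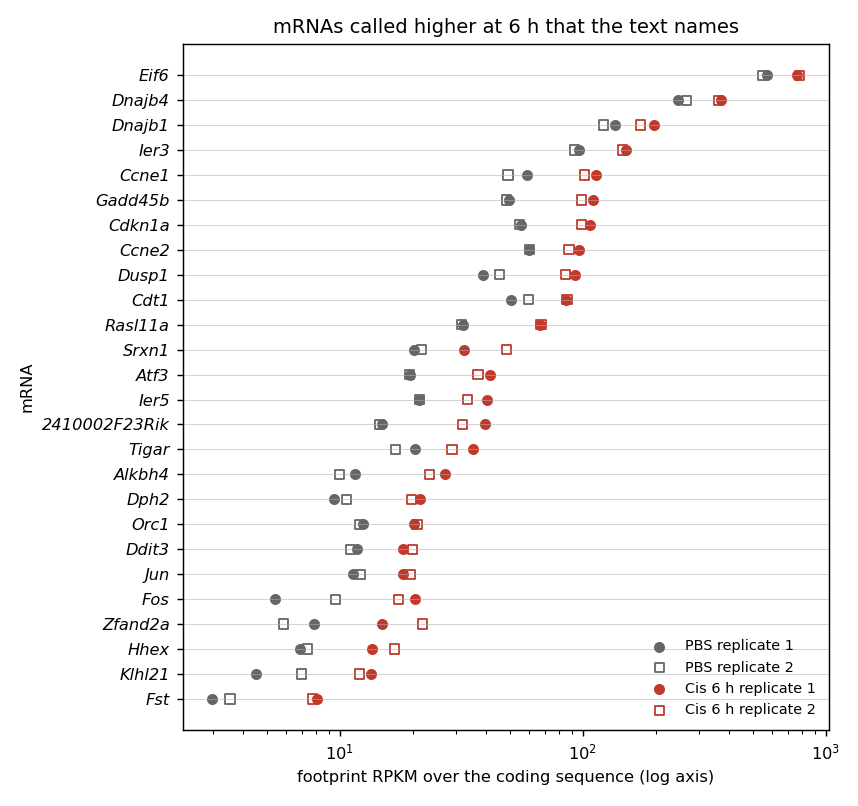
Footprint RPKM (log axis) in each PBS library (grey) and each 6 h library (red) for the 26 mRNAs called higher that the rule for named genes covers; filled circles are replicate 1 and open squares replicate 2. The 6 h libraries lie to the right of both PBS libraries for each gene, from Fst at 2.98 to 8.05 RPKM up to Eif6 at 551 to 783 RPKM.

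In the translation machinery the calls were near the share of all mRNAs (1.05% higher and 0.991% lower). Over 79 ribosomal protein mRNAs the median log2 change was near 0 (-0.0038, and 0.011 with RPKM as deposited), with 37 above 0, 9 higher and 9 lower at an unadjusted p under 0.05, and 8 higher and 7 lower with voom. Rpl12 was the one called with limma, from 848 and 846 RPKM with PBS to 595 and 629 RPKM at 6 h (-0.48 ± 0.08, adjusted p = 0.03). Its RNA changed by 0.11 ± 0.07. Of 52 translation factors (median -0.04), Eif2s1, the alpha subunit of eIF2 that carries the phosphorylation site of the ISR, fell from 653 and 693 RPKM to 489 and 491 RPKM (-0.47 ± 0.08, adjusted p = 0.029), and Eif6, a factor of large ribosomal subunit maturation, rose from 576 and 551 RPKM to 759 and 783 RPKM (0.44 ± 0.07, adjusted p = 0.029). The RNA of Eif2s1 changed by -0.04 ± 0.12 and that of Eif6 by 0.12 ± 0.11.

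Among RNA-binding proteins of the hnRNP family, 2 listed members were called lower, and Hnrnpab, named after its value was seen, was called higher. Of 31 splicing regulators tested 2 were called lower and 0 higher, with a median of 0.06. Hnrnpd, which binds AU-rich elements, fell from 690.5 and 702 RPKM to 469 and 490.1 RPKM (-0.55 ± 0.08, adjusted p = 0.028), and Hnrnpa1 from 2132 and 2175 RPKM to 1697 and 1671 RPKM (-0.37 ± 0.07, adjusted p = 0.038). Hnrnpab and Matr3 were named after their values were seen. Hnrnpab rose from 3755 and 4618 RPKM to 6498 and 6825 RPKM (0.66 ± 0.11, adjusted p = 0.034), and the nuclear matrix protein Matr3 fell from 176 and 173 RPKM to 123 and 123 RPKM (-0.52 ± 0.08, adjusted p = 0.029). The RNA changes of Hnrnpd and Hnrnpab were 0.02 ± 0.13 and 0.14 ± 0.07.

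Single members were called in lists of growth factor signalling. Btc, the EGF receptor ligand betacellulin, read 69.8 and 67.5 RPKM with PBS and 47.0 and 50.8 RPKM at 6 h (-0.50 ± 0.10, adjusted p = 0.049), the one call among 10 EGFR ligands and receptors (median 0.16). Smad3, a transcription factor of TGF-beta signalling from a gene of 111 kb, read 28.9 and 23.4 RPKM with PBS and 13.7 and 14.9 RPKM at 6 h (-0.86 ± 0.17, adjusted p = 0.043), the one call among 22 TGF-beta and BMP targets (median -0.05).

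Several lists held no member called with limma, where 1.05% of all mRNAs were called higher and 0.991% lower. At an unadjusted p under 0.05, 10.3% of all mRNAs were higher and 11% lower, and voom called 4.31% higher and 7.97% lower. ER stress genes had a median log2 change of -0.09 over 27 tested, with 1 higher and 5 lower at an unadjusted p under 0.05; P4hb, a disulfide isomerase, read 1343 and 1394 RPKM with PBS and 1398 and 1420.3 RPKM at 6 h, and the chaperone Canx 976 and 1099 RPKM and 957 and 947 RPKM. NF-kB and inflammation genes had a median of 0.09 over 29 tested, with 4 higher and 3 lower at an unadjusted p under 0.05, and the chemokine Cxcl5 read 607 and 526 RPKM with PBS and 516 and 468 RPKM at 6 h. The 12 cGAS-STING genes tested had a median of 0.11 (3 higher and 1 lower), with the nucleotide hydrolase Samhd1 changed by 0.11 ± 0.10 and the ubiquitin ligase Rnf5 by 0.35 ± 0.14. None of these named members passed with limma. With voom, 0 ER stress genes were called higher and 4 lower, 1 and 2 NF-kB genes, and 1 and 1 cGAS-STING genes.

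Of 53 DNA repair genes (median -0.03) 7 were higher and 3 lower at an unadjusted p under 0.05, and the repair factors Gtf2h5 and Rad23b changed by 0.31 ± 0.09 and -0.05 ± 0.08. Mitosis genes (34, median -0.10) had 2 higher and 6 lower, with Ube2c at 0.13 ± 0.09 and Birc5 at 0.09 ± 0.09. Cholesterol synthesis genes (25, median -0.07) had 2 higher and 4 lower, with Idi1 at 0.14 ± 0.09 and Msmo1 at 0.21 ± 0.07. YAP targets (17, median -0.15) had 0 higher and 3 lower, with F3 at -0.16 ± 0.11 and Axl at 0.15 ± 0.09, and the BCL2 family (12, median 0.22) had 4 higher and 2 lower, with Mcl1 at -0.13 ± 0.08 and Bak1 at 0.19 ± 0.10. Voom called 2 DNA repair genes higher and 3 lower, 1 and 6 mitosis genes, 0 and 4 cholesterol genes, 0 and 2 YAP targets, and 1 and 1 genes of the BCL2 family.

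The 10 mitochondrially encoded mRNAs, which are translated by mitochondrial ribosomes, had a median of -0.22 with 1 above 0, and voom called 1 higher and 3 lower. The one above 0 was mt-Atp6, at 6557 and 4494 RPKM with PBS and 6483 and 7252 RPKM at 6 h (0.32 ± 0.17, adjusted p = 0.31), and mt-Co1 read 5714 and 4551 RPKM and 4095 and 4421 RPKM (-0.28 ± 0.10, adjusted p = 0.17). The 243 zinc finger genes with the prefix Zfp that were tested, of 326 with a read, had a median of 0.15 with 164 above 0 (67.5%, against 48.4% of all mRNAs). Of these, 38 were higher and 11 lower at an unadjusted p under 0.05, against 10.3% and 11% of all mRNAs, and voom called 8 higher and 7 lower. The median span of the 243 was 16.8 kb, and 36.9% of all mRNAs from genes of 10 to 20 kb lay below 0. Zfp706 and Zfp207, the most abundant, changed by 0.26 ± 0.13 and 0.11 ± 0.09.

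**Figure D5:**
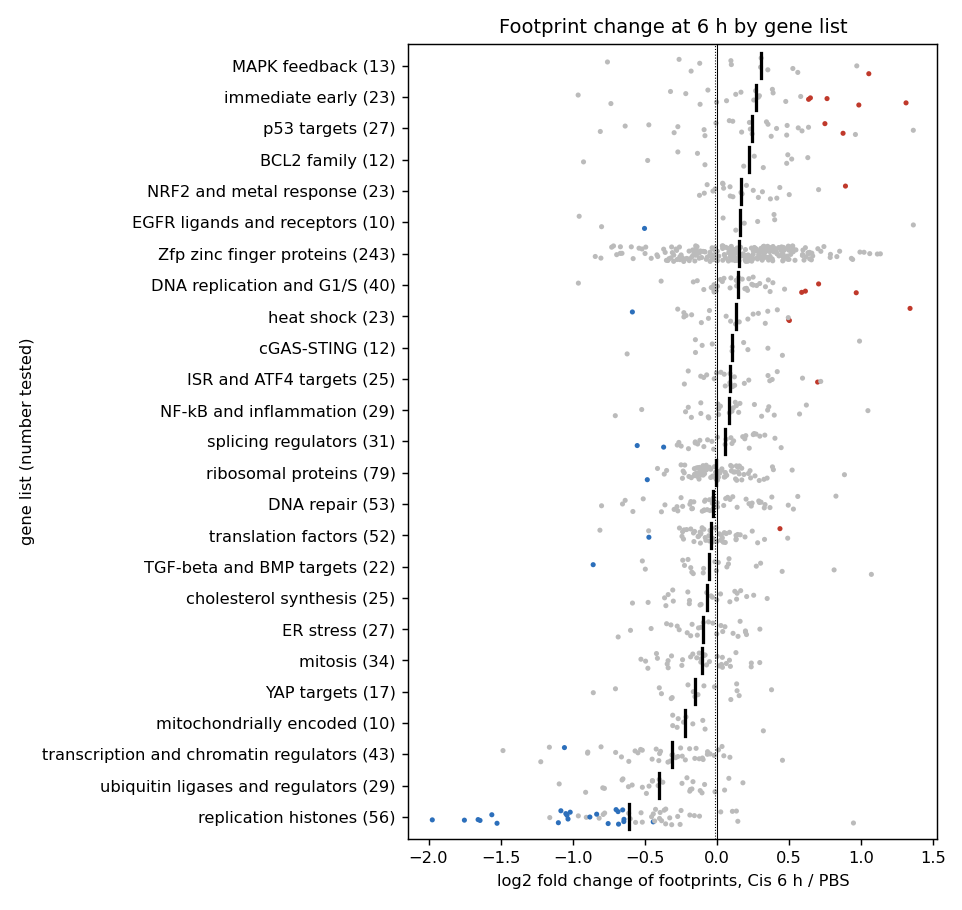
Log2 fold change of footprints at 6 h for the tested members of 25 gene lists, 1 point per mRNA, with the median as a black bar and the median of all mRNAs as a dotted line. The lists of genes the study names and of long signalling and cytoskeletal genes (median -0.88) are left out; of those drawn, replication histones have the lowest median (-0.61) and MAPK feedback genes the highest (0.30). Red and blue points are the calls.

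The genes that the study itself follows were read in the same way. Ern1, which encodes the ER stress sensor IRE1α, stood at 10.4 and 8.34 RPKM with PBS and at 8.80 and 6.87 RPKM at 6 h, so that the groups overlapped (log2 change -0.26 ± 0.20, 95% interval -0.72 to 0.20, adjusted p = 0.5). Sting1 stood at 2.71 and 2.65 RPKM with PBS and at 2.63 and 2.35 RPKM at 6 h, with a mean of 13.2 reads per library (-0.10 ± 0.23). Cgas, the DNA sensor upstream of STING, read 6.70 and 8.75 RPKM with PBS and 9.95 and 11.7 RPKM at 6 h (0.45 ± 0.19, adjusted p = 0.21), and the kinase Tbk1 changed by -0.03 ± 0.17 and its substrate Irf3 by 0.11 ± 0.14. At this depth a change in Sting1 of up to 0.43 or down to -0.63 on the log2 scale lies within the 95% interval.

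The other ER sensors read lower without passing. Atf6, from a gene of 164 kb, went from 27.5 and 28.5 RPKM to 17.7 and 17.2 RPKM (-0.68 ± 0.14, adjusted p = 0.053), and Eif2ak3, which encodes PERK, from 4.37 and 4.24 RPKM to 2.93 and 2.48 RPKM (-0.60 ± 0.27, adjusted p = 0.24). The ER chaperones Hspa5 (-0.13 ± 0.08), Hsp90b1 (-0.46 ± 0.12, adjusted p = 0.085) and Pdia6 (-0.35 ± 0.11), the ER-associated degradation genes Sel1l (-0.09 ± 0.13) and Syvn1 (-0.06 ± 0.20), and Xbp1 (0.16 ± 0.13) did not pass.

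Of the inflammatory genes, Ccl5 read 97.1 and 122 RPKM with PBS and 71.8 and 62.9 RPKM at 6 h (-0.70 ± 0.15, adjusted p = 0.055), Cxcl10 changed by 0.09 ± 0.10 and Ccl2 by -0.06 ± 0.07. Il6 rested on a mean of 5 reads per library, at 1.82 and 0.339 RPKM with PBS and 3.03 and 1.87 RPKM at 6 h (1.05 ± 0.45, adjusted p = 0.23). H2ax (0.08 ± 0.11), Gpx4 (0.28 ± 0.09), Tollip (0.19 ± 0.14), and the mitochondrial genes Hspd1 (-0.23 ± 0.08), Vdac1 (-0.01 ± 0.09), Mfn2 (-0.07 ± 0.14) and Dnm1l (0.20 ± 0.10) did not pass either. Of the 26 genes of this list, 1, Eif2s1, was called with limma, while voom called 2 higher and 6 lower. Eif2a (0.33 ± 0.09, adjusted p = 0.089) stood in the list although the study names eIF2α, which Eif2s1 encodes, and not Eif2a.

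RNA-seq of the same groups leaned the same way for the called mRNAs, with no call of its own. Of 9459 genes tested for RNA, 0 were called higher and 0 lower by limma (lowest adjusted p 0.16), 536 (5.67%) were higher and 550 (5.81%) lower at an unadjusted p under 0.05, and voom on recovered reads called 57 higher and 184 lower. The median SE of an RNA log2 change was 0.22, against 0.17 for footprints. Of the 108 called rises with an RNA value, 92 lay above 0 in RNA (median 0.22) and 32 were higher at an unadjusted p under 0.05. Of the 100 called falls with an RNA value, 86 lay below 0 in RNA (median -0.43) and 51 were lower at an unadjusted p under 0.05. The median RNA change over all mRNAs with both values was -0.007. RNA medians also differed by span, from 0.06 up to 5 kb to -0.52 over 200 kb. The part of span in the RNA values of the calls was not tested. Whether footprints and RNA changed by different amounts was not tested here.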

How the data were processed

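Ribosome profiling and RNA-seq libraries of KPC cells (12 in all; PBS, Cis at 6 h and Cis at 21 h, with 2 libraries per assay and group) were used. The authors deposited RPKM for each library and 1 representative transcript per gene, without pooling, with footprints divided by coding length and RNA-seq reads by transcript length. The submitters' processing notes name cutadapt, STAR and the build GRCm39. Their read filters, and how reads that match several genes were counted, are not given in the sources used here. Multiplied by length, 100% of the RPKM values were whole multiples of 1 read (tolerance 0.02), which gave the reads and the depth (1985344 to 2901692 reads for the RNA-seq libraries), without molecular identifiers.

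RPKM were divided by median-of-ratios factors within each assay, and transcripts whose scaled RPKM averaged 1 or more over the assay's 6 libraries were fitted on the log2(RPKM + 0.5) scale with limma 3.58.1 in R 4.3.3 (3 groups in the model, eBayes with a trend, two-sided, Benjamini-Hochberg over all transcripts, threshold 0.05). Log2 changes on this scale understate those of low mRNAs. An exact permutation test of 2 libraries against 2 cannot go below 0.333 and was not used. Replicates differed by more than counting noise (chi-square per degree of freedom 4.09 for PBS and 1.71 for 6 h) and were counted as separate libraries, which does not show that they came from separate cultures.

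Genes named are the 12 largest rises and 12 largest falls among calls with no overlap between groups and a mean of at least 20 reads per library, every called member of a gene list, the genes the study names (with Eif2a, which it does not), and the 2 most abundant members of a list with no call. Others are said to be chosen after their values were seen. The comparison, the 27 gene lists and the 6 marker lists were chosen with earlier results of these data known. Promoter windows and spans came from RefSeq on GRCm38.p6 by symbol. The test was checked on simulated data. Alternatives were other pseudocounts, filters, scalings, spread models and thresholds, voom on recovered reads, only the compared groups, a replicate block, and each library left out. Python 3.11.15 and pandas 2.3.3 were used.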

Additional observations from a re-analysis of the deposited data

Results flagged for a closer look

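For 6 of the named mRNAs called lower at 6 h, every 21 h library lay above both PBS libraries while every 6 h library lay below both. The difference between the time points is the limma estimate of 21 h minus 6 h, which does not compare 21 h with PBS. It was 1.005 ± 0.07 SE on the log2 scale for H2bc3, which read 2795 and 2871 RPKM at 21 h. For H4c2 it was 1.28 ± 0.10 and for H3c1 1.28 ± 0.13. The linker histone H1f3 differed by 1.09 ± 0.12, with 450.1 and 428 RPKM at 21 h against 375 and 278 RPKM with PBS. Outside the histones, Eif2s1 differed by 0.78 ± 0.08, with 860.0 and 852 RPKM at 21 h, and Btc by 0.58 ± 0.10. These genes were picked for this pattern, which fixes the sign of the difference, so no p-value is given. Histone copies may also share reads. No group had 4 or more libraries, so no single library was tested for standing apart.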

How the results depend on the processing

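The number of mRNAs past the threshold moved with the settings, while the direction of each named and called mRNA did not change in any setting (70 genes, 1184 values, of which 435 no longer passed), as leaving out a library could not change it where libraries do not overlap. The 109 higher and 103 lower mRNAs became 9 and 8 with no filter on low values, 181 and 160 at a mean RPKM of at least 5, 172 and 179 at a mean of at least 10 reads, 448 and 828 with voom on recovered reads, 226 and 230 with only PBS and 6 h in the model, 332 and 348 at an adjusted p under 0.1, and 12 and 36 with an absolute log2 fold change above 1 as well. Without the trend in eBayes they became 0 and 0, with 870 and 1131 at an unadjusted p under 0.05 and a lowest adjusted p of 0.071. Pseudocounts, quantile normalization and RPKM as deposited kept both counts within 1.5 times. Leaving out each library in turn gave 0 to 197 higher and 0 to 201 lower mRNAs. The lower counts come with fewer libraries in the groups compared, and the rise without either 21 h library has a cause that was not tested. RNA calls, 0 and 0, became 57 and 184 with voom and 1 lower with quantile normalization, and 0 to 1 lower with a library left out. The 22 called histones became 7 with no filter, 0 without the trend, 12 with the limit on fold change, and 0 to 26 with a library left out. The median of -0.67 for genes over 200 kb became -0.72 with a pseudocount of 0.1, -0.62 with 1, -0.60 at a mean RPKM of at least 5, -0.64 with quantile normalization, -0.73 with voom, and -0.69 to -0.66 with a library left out.

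Samples with the same replicate number did not deviate together across mRNAs (correlation 0.007 between PBS and 6 h). The labels do not say whether equal numbers mark pairs, and this correlation cannot decide it. With a replicate block in the model, 17 mRNAs were higher and 20 lower, and 15 histones were lower.

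For the 46 named genes that were not called, 22 of 780 values over the settings did pass the threshold, and 18 changed sign. The sign changes were in values near 0. Vdac1 became 0.0012 with RPKM as deposited, 0.0026 with quantile normalization and 0.0039 with only the compared groups, and Cul1 0.0014 as deposited and 0.0041 with only the compared groups. With each library left out in turn, the log2 change ran from -0.0012 to 0.20 for Irf3, -0.13 to 0.0017 for Mfn2, -0.22 to 0.017 for Sel1l, -0.23 to 0.11 for Syvn1, -0.28 to 0.20 for Tbk1, -0.14 to 0.10 for Vdac1, -0.025 to 0.069 for P4hb, -0.0066 to 0.21 for Samhd1 and -0.062 to 0.036 for Cul1. Of 27 list medians, those of ribosomal proteins, translation factors and splicing regulators changed sign in some settings.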
